A study of Rattus norvegicus with 4 samples.

Results

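Lactoperoxidase (Lpo) and the oxidases that can supply it with hydrogen peroxide were compared between peri-implant epithelium and junctional epithelium of the rat. The set was named as 6 genes, Lpo, Duox1, Duox2, Cyba, Cybb and Nox4, and every probe set whose single gene symbol in the platform annotation was one of them was taken. This gave 7 probe sets for 5 of the 6 genes, out of 31042 probe sets and 14217 genes measured. Duox1 was not matched to a probe set and has no value here. There were 2 arrays of junctional epithelium, which attaches the gum to the tooth surface, and 2 of peri-implant epithelium, which faces an implant of titanium alloy. The animals were male Sprague Dawley rats. They were 4 weeks old when the left upper first molar was taken out and the implant placed, and tissue of 20 rats was collected 4 weeks after that. The labels give extraction and implant placement as the treatment of all 4 samples, the junctional ones included. The epithelium was cut from frozen sections by laser microdissection, and its RNA was amplified before hybridisation. The sources used here do not say how many rats an array holds, or whether both epithelia came from the same rats, so p-values measure the spread between these arrays only.

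Lactoperoxidase is a heme peroxidase of saliva, milk and airway fluid. It uses hydrogen peroxide to oxidise thiocyanate to hypothiocyanite, which inhibits bacteria at mucosal surfaces. The peroxide comes from bacteria and from host NADPH oxidases, chiefly the dual oxidases Duox1 and Duox2 in the apical membrane of secretory and mucosal epithelium. Cybb is the catalytic subunit of the phagocyte oxidase, which makes superoxide, and Cyba is its membrane partner, shared with Nox1 and Nox4. Nox4 releases mostly hydrogen peroxide and is known from kidney, vessel wall and fibroblasts.

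In the rat assembly GRCr8 the members lie on 5 chromosomes, and all are protein-coding. Lpo lies on chromosome 10 from 73104170 to 73124683, Cyba on chromosome 19 from 67396143 to 67404214, Cybb on chromosome X from 16030596 to 16065065 and Nox4 on chromosome 1 from 150313736 to 150491480. Duox2 and Duox1 lie on chromosome 3, from 129680543 to 129698886 and from 129714125 to 129749186. Between them lie the maturation factors Duoxa2 and Duoxa1, which carry the dual oxidases out of the endoplasmic reticulum. The 180 bases before the transcript start in RefSeq (GRCr8) are shown for Lpo and Duox2, the members with the largest differences between the epithelia. Both are read 5′ to 3′ on the minus strand, from chr10:73123457-73123636 and chr3:129698754-129698933, and both starts lie inside the annotated span of the gene. Capitals mark the motifs found.
Lpo: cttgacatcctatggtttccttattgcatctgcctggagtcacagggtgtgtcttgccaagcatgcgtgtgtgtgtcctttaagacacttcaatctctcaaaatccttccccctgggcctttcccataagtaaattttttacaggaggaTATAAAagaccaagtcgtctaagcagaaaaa
Duox2: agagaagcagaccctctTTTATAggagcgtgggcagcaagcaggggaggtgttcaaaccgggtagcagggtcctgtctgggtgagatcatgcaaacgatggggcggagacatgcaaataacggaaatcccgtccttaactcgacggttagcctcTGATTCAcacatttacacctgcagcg

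On both strands, 5 motifs were searched. They were TATAAA (the TATA box), TTCNNNGAA (bound by STAT factors), TGANTCA (bound by AP-1), GAAANNGAA (bound by interferon regulatory factors) and the NF-kappaB consensus. The Lpo window held TATAAA from 31 to 26 bases before the start. The Duox2 window held TATAAA on the opposite strand from 163 to 158 bases before the start, and TGANTCA from 26 to 20 bases before it. The other motifs had no match in either window. Of 33469 promoter windows of this length, 9.41% held TATAAA, 5.37% TTCNNNGAA, 4.43% TGANTCA, 5.79% GAAANNGAA and 4.61% the NF-kappaB consensus. The Duox2 window ends just short of the annotated span of Duoxa2, which begins 52 bases beyond that of Duox2.

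Values are log2 signals, and the number of arrays limits their precision. The highest signal of 27 control probe sets for bacterial genes on any array, 6.42, was taken as background, and 54.6% to 56.8% of probe sets exceeded it on each array. All 12 matched markers of stratified epithelium exceeded it on both arrays of a group, with the keratins Krt5 and Krt14 between 15.73 and 16.23. With an intensity trend 3 of these 12 rose, Krt17 by 1.83 (adjusted p = 1.25e-06), Krt4 by 0.41 and Krt15 by 0.42, and 0 fell, with a median difference of 0.19. Among all genes, 6.60% were called higher and 4.80% lower. Krt17, a keratin of stressed and wounded epithelium, also passed without any 1 of the 4 arrays, while Krt4 and Krt15 did not pass with median centring (adjusted p = 0.0843 and 0.0905). The part of epithelial makeup in the differences below was not tested. Of the junctional epithelium and enamel organ markers, Krt19 was 13.68 and 13.62 on the junctional arrays and 13.49 and 13.47 on the peri-implant arrays. Ambn and Amelx were below background and Odam, Amtn and Klk4 were not matched, so the defining proteins of junctional epithelium could not check its identity. Transcripts of connective tissue were also present, with Col1a1 from 14.00 to 14.40.

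Lpo had the largest difference among the members. Its probe set, 1377429_at, read 6.09 and 6.68 on the junctional arrays and 11.10 and 11.11 on the peri-implant arrays. The groups did not overlap, the peri-implant arrays nearly coincided, and 1 of the 2 junctional arrays lay below background. The difference was 4.72 on the log2 scale (95% interval 4.21 to 5.22), from 6.39 ± 0.41 to 11.10 ± 0.01 (mean ± SD, n = 2 each). With the junctional array below background raised to that level, Lpo was at least 23.5-fold higher in peri-implant epithelium. In limma's test with an intensity trend and robust prior, adjusted p over all probe sets was 3.76e-06, the 17th smallest p of 31042. In limma's default fit it was 0.125, which is also the smallest adjusted p of any probe set there. Among the 9130 probe sets with a mean signal at least as high, 0 had a larger difference. Over all 31042 probe sets the Lpo difference ranked 75 from the top. The series title names Lpo for these samples, so its direction is not independent evidence.

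Duox2, the dual oxidase that also serves thyroid hormone synthesis, rose in the same direction. Its probe set, 1387414_at, read 4.39 and 5.74 on the junctional arrays and 7.67 and 8.04 on the peri-implant arrays. Both junctional arrays lay below background and both peri-implant arrays above it, so the groups did not overlap. The fitted difference was 2.79 (95% interval 1.61 to 3.97), and the bound against background was at least 2.71-fold (limma with an intensity trend, adjusted p = 0.0123, and 0.213 in the default fit). The spread between the junctional arrays, an SD of 0.95, lay wholly below background. Duoxa1, the maturation factor of Duox1, read 9.60 and 9.51 on the junctional arrays and 9.74 and 9.72 on the peri-implant arrays, a difference of 0.17 (95% interval -0.14 to 0.48) that did not pass (adjusted p = 0.508). Duoxa2, the partner of Duox2, was not matched to a probe set.

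The subunits of the phagocyte oxidase rose by less. Cyba, the p22phox subunit, read 10.02 and 10.23 on the junctional arrays and 10.57 and 10.73 on the peri-implant arrays with probe set 1370219_at. These groups did not overlap, all 4 values were well above background, and the difference was 0.52 (95% interval 0.24 to 0.81), or 1.44-fold (adjusted p = 0.033 with an intensity trend, 0.319 in the default fit). With each array centred on its median, this call was lost (difference 0.48, adjusted p = 0.0709). The other Cyba probe set, 1378451_at, read 5.45 and 6.69 on the junctional arrays and 5.59 and 5.86 on the peri-implant arrays. It overlapped, exceeded background on 1 array only, and gave a difference of -0.35 (95% interval -1.72 to 1.03, adjusted p = 0.789).

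Cybb, the gp91phox subunit also called Nox2, was higher in peri-implant samples with both of its probe sets. Probe set 1379344_at read 7.25 and 7.27 on the junctional arrays and 8.47 and 8.16 on the peri-implant arrays. Its difference was 1.05 (95% interval 0.47 to 1.64), or 2.08-fold, and passed (adjusted p = 0.0355 with an intensity trend, 0.197 in the default fit). Probe set 1369181_at read 7.88 and 7.01 against 8.38 and 8.43, with no overlap but a junctional SD of 0.62. Its difference was 0.96 (95% interval 0.26 to 1.66) and did not pass (adjusted p = 0.0878). It depended on the junctional arrays, with 1.40 without junctional array 1 and 0.53 without junctional array 2.

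Nox4 was below background on every array. Probe set 1368543_at read 3.54 and 5.27 on the junctional arrays and 5.17 and 5.85 on the peri-implant arrays. The groups overlapped, and the interval of the difference ran from -1.0 to 3.21 (adjusted p = 0.524). No fold is given for it, since neither group was resolved from background.

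In all, 4 of the 7 probe sets, 1 each for Lpo, Duox2, Cyba and Cybb, rose with an intensity trend and 0 fell. Over the whole table, 4.74% of probe sets were called higher and 4.16% lower. Only 3 of the 7 probe sets, 1 of Cyba and 2 of Cybb, exceeded background on all 4 arrays. In 5 of the 7 the peri-implant arrays both lay above both junctional arrays, as did 27.8% of all probe sets. Limma's default fit called 0 of 31042 probe sets (0%), those of the members included. In that fit 5247 had an unadjusted p under 0.05, among them the probe sets of Lpo and Duox2 and 1 of Cybb. An exact permutation test of 2 against 2 arrays cannot go below p = 0.333 (two-sided). When any 1 of the 4 arrays was left out, the trend fit kept Lpo past the threshold and lost Duox2, Cyba and Cybb, with adjusted p from 0.00834 to 0.0148 for Lpo, 0.0769 to 0.163 for Duox2, 0.126 to 0.254 for Cyba and 0.124 to 0.216 for Cybb. The differences then ran from 4.42 to 5.01 for Lpo, 0.42 to 0.63 for Cyba and 0.90 to 1.21 for Cybb (1379344_at). That of Duox2 was 2.11 without junctional array 1 and 3.46 without junctional array 2, both of them below background. In these fits the spread within a gene comes from the group that keeps both arrays. In bulk tissue, fewer cells that express a gene and less RNA per cell cannot be told apart, for these genes and all those below.

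**Figure D1:**
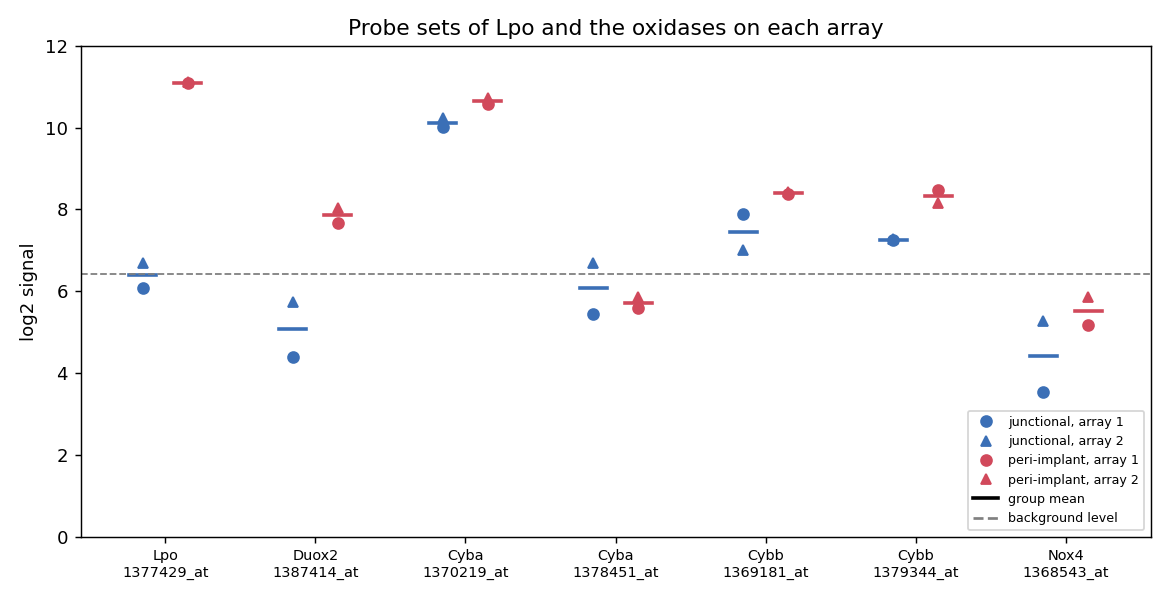
Log2 signal of the 7 probe sets of Lpo, Duox2, Cyba, Cybb and Nox4 on each of the 4 arrays (circle, array 1; triangle, array 2), with group means as bars and the background level of 6.42 as a dashed line. Lpo is near 11.1 on both peri-implant arrays and near background on the junctional ones, Duox2 crosses the background line, and Nox4 stays below it.

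**Figure D2:**
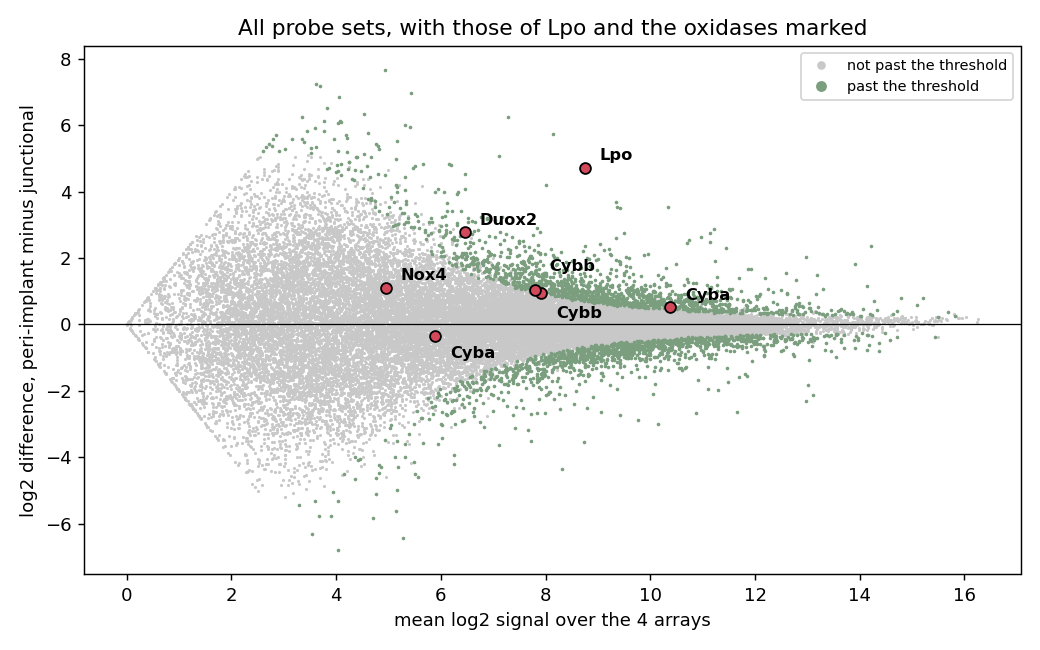
Log2 difference, peri-implant minus junctional, of all 31042 probe sets against their mean log2 signal over the 4 arrays, with probe sets past the threshold in green and the 7 probe sets of Lpo and the oxidases in red. Differences scatter widely at low signal, where Nox4 lies, and narrowly at high signal, where a Cyba difference of 0.52 passed.

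Among the partners of these oxidases, Rac2, Noxo1 and Ncf4 rose. The list named 12 subunits, maturation factors and regulators, of which 8 were matched and all 8 exceeded background on both arrays of a group. With an intensity trend 3 rose, 0 fell and 5 did not pass, and the median difference was 0.72, against 0.05 over all 14217 genes (0.57 against 0 with signals raised to background). Over all genes, 6.60% were called higher and 4.80% lower. Rac2, the small GTPase that activates the oxidase in leukocytes, read 6.39 and 6.84 on the junctional arrays and 8.70 and 8.35 on the peri-implant arrays and rose at least 3.71-fold (adjusted p = 0.00546). Noxo1, the organiser subunit of Nox1, read 8.48 and 8.52 against 10.18 and 10.47, a difference of 1.83 (adjusted p = 0.000206), and both of its probe sets had this direction. Ncf4, the p40phox subunit, read 8.06 and 8.49 against 9.23 and 9.25, a difference of 0.97 (adjusted p = 0.0196).

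The 5 partners that did not pass differed in size. Nox1, the oxidase of colon epithelium, read 4.70 and 6.72 on the junctional arrays and 7.04 and 7.43 on the peri-implant arrays (adjusted p = 0.169). Ncf1, the p47phox organiser, had a difference of 0.48, Cybc1, which stabilises the Cyba and Cybb dimer, 0.12, and the widely expressed GTPase Rac1, -0.14. For Cybc1 and for Rac1, the 2 probe sets of the gene differed in direction. In the default fit the adjusted p of these 8 genes ran from 0.148 to 0.748.

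Of the other heme peroxidases with a probe set, Epx and Pxdn, neither passed. Mpo, the peroxidase of neutrophils, was not matched. Epx, of eosinophils, read 2.80 and 5.81 on the junctional arrays and 4.27 and 5.94 on the peri-implant arrays, all below background. Pxdn, which crosslinks collagen IV, read 8.07 and 8.48 against 8.95 and 8.98, a difference of 0.69 without overlap (adjusted p = 0.0736). It passed when dim probe sets were filtered out (adjusted p = 0.04).

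Of 25 other oxidases listed that release hydrogen peroxide as a by-product, 21 were matched. By the probe set of each with the highest mean, 3 rose, 0 fell and 18 did not pass. The shares over all genes were 6.60% higher and 4.80% lower. Only 11 of the 21 exceeded background on both arrays of a group, and the median difference of 0.21 over all 21 became 0 with signals raised to background. Lox, which crosslinks collagen and elastin, read 7.50 and 7.29 on the junctional arrays and 8.88 and 8.46 on the peri-implant arrays, 2.42-fold higher (adjusted p = 0.0151). Ero1a, which forms disulfide bonds in the endoplasmic reticulum, read 9.77 and 9.63 against 10.57 and 10.67, 1.89-fold higher (adjusted p = 0.00255). Xdh, xanthine dehydrogenase, had a small difference at high signal, from 13.32 and 13.33 to 13.66 and 13.58 (0.29, adjusted p = 0.0293), which did not pass with median centring (adjusted p = 0.264) or without the robust prior (adjusted p = 0.0534).

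Enzymes that dismute superoxide or remove peroxide moved in both directions. Of 16 listed, 15 were matched, 3 rose, 2 fell and 10 did not pass, and the median difference was -0.03. The shares over all genes were 6.60% higher and 4.80% lower. Sod2, the mitochondrial dismutase that turns superoxide into hydrogen peroxide, read 11.03 and 11.05 on the junctional arrays and 12.78 and 12.63 on the peri-implant arrays, 3.17-fold higher (adjusted p = 8.25e-06). It also passed without any 1 of the 4 arrays (adjusted p from 0.0051 to 0.034). Cat, catalase, fell from 12.65 and 12.67 to 12.20 and 12.15, a difference of -0.49 (adjusted p = 0.00546). Gpx1, the cytosolic glutathione peroxidase, fell from 13.35 and 13.29 to 12.99 and 12.67, also by 0.49 on the log2 scale (adjusted p = 0.0166).

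Gpx2, the glutathione peroxidase of gut epithelium, rose by 0.44 (adjusted p = 0.0252) and the peroxiredoxin Prdx5 by 0.43 (adjusted p = 0.00841). With median centring neither passed (adjusted p = 0.112 and 0.0888). The cytosolic dismutase Sod1 was 13.24 and 13.21 against 13.17 and 13.12, and its interval of -0.24 to 0.07 bounds any difference. None of these genes passed the default fit. Of the pathway genes past the threshold, Noxo1 passed without either peri-implant array and Gpx1 without peri-implant array 1. Apart from them and Sod2, none passed once any 1 array was left out.

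Transporters that can supply thiocyanate or iodide gave 1 gene in each direction among 4 matched of 5 listed. Among all genes, 6.60% were called higher and 4.80% lower. Cftr, a chloride channel that also passes thiocyanate in airway epithelium, read 6.97 and 7.75 on the junctional arrays and 8.45 and 8.68 on the peri-implant arrays, 2.30-fold higher (adjusted p = 0.0364). Ano1, a calcium-activated chloride channel, read 9.83 and 9.82 against 9.05 and 9.27, 1.59-fold lower (adjusted p = 0.0269). Slc26a4, the exchanger pendrin, had a difference of 0.67 that did not pass (adjusted p = 0.396), and the iodide symporter Slc5a5 was below background on every array.

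**Figure D3:**
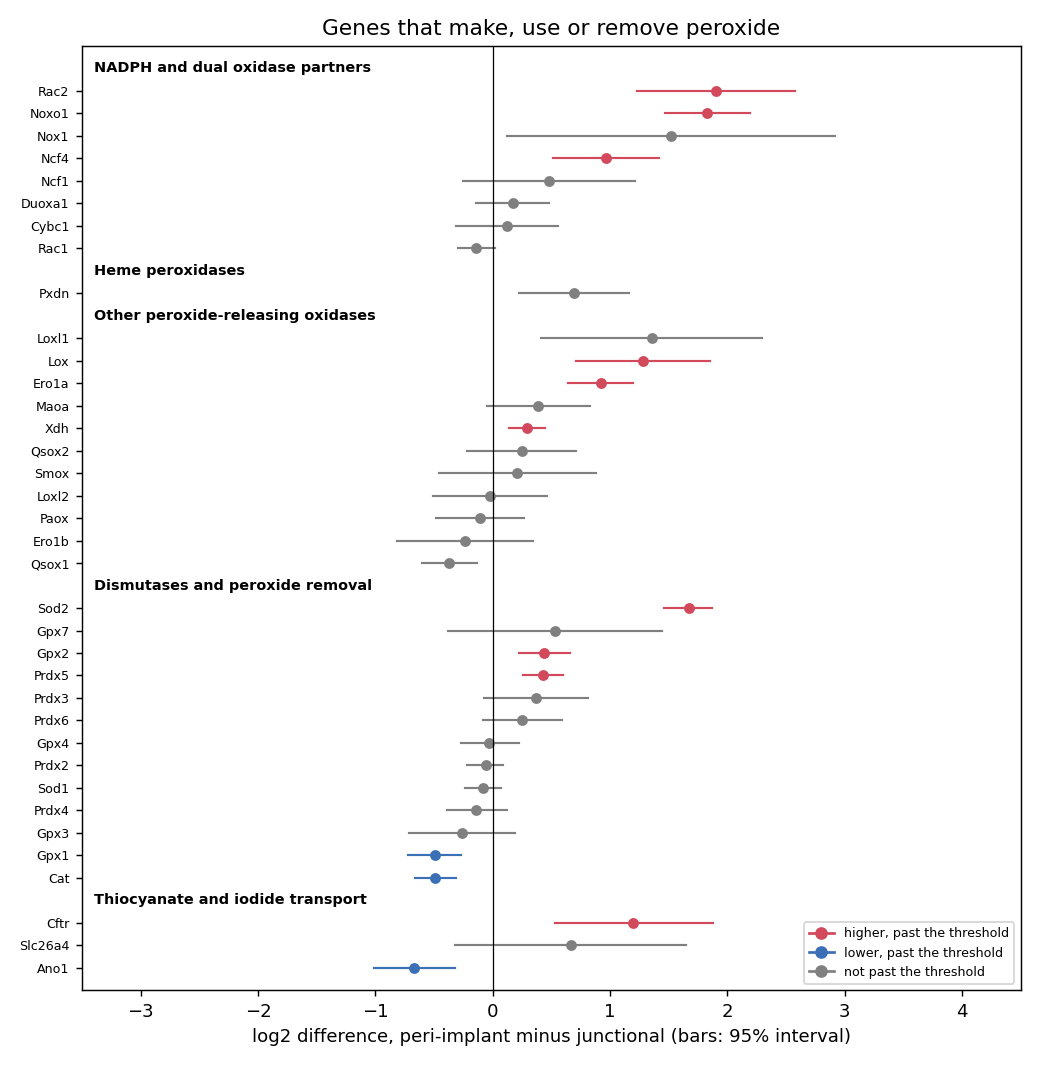
Log2 difference, peri-implant minus junctional, with its 95% interval for the pathway genes above background on both arrays of a group, in 5 groups by role. The largest increases past the threshold are those of Rac2 (1.90), Noxo1 (1.83) and Sod2 (1.67), and the decreases past it are Ano1 (-0.67), Gpx1 (-0.49) and Cat (-0.49).

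Markers of salivary gland, where Lpo is abundant, were at or near background in both epithelia. Of 14 listed, 11 were matched and 0 exceeded background on both arrays of either group. Below background, Bhlha15, a transcription factor of secretory cells, was at 0 on both peri-implant arrays, and Oprpn was at 0 on both junctional arrays. The highest value of the 11 markers on any array was 6.86, of the proline-rich protein Prb1 on junctional array 2. The log2 of the summed signal of the 11 markers was 7.17 and 7.73 on the junctional arrays and 7.29 and 7.35 on the peri-implant arrays. This is a sum of signals at or near background that have no order. The part of salivary tissue in the Lpo difference was not tested.

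Leukocytes also express Cyba, Cybb, Ncf4 and Rac2, and some of their markers rose. Of 7 matched neutrophil markers 5 rose and 0 fell, where 6.60% of all genes were called higher and 4.80% lower. The log2 of the summed signal of these markers went from 15.23 and 15.24 to 16.66 and 16.46. That sum is mostly the calprotectin subunits S100a8 and S100a9, which keratinocytes also make. Cxcr2, a chemokine receptor of neutrophils, read 9.47 and 9.61 against 10.95 and 10.96. The granule proteins Mmp8 and Camp were below background on every array and did not pass. Camp read 4.15 and 2.98 against 6.33 and 6.36, and Mmp8 4.04 and 5.48 against 6.25 and 5.19. On peri-implant array 1 both exceeded the highest bacterial control of that array alone, 5.40. Of 12 macrophage and dendritic cell markers 4 rose, among them Csf1r (by 1.42) and Ptprc (by 0.78), Mrc1 fell, at least 2.22-fold, and 7 did not pass. Of these 7, Cd163 was below background on every array. The rest ran from Cd68 (difference 0.19, adjusted p = 0.525) to Itgax (difference 1.04, adjusted p = 0.0713). The median difference of the 12 markers was 0.75. Their summed signal went from 12.25 and 12.01 to 12.73 and 12.95. The 4 eosinophil markers were below background on every array. The part of leukocytes in the differences of Cyba, Cybb, Ncf4 and Rac2 was not tested. The fibroblast and vessel list had 1 of 9 members higher (Col1a1, by 0.32) and a median difference of 0.04.

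**Figure D4:**
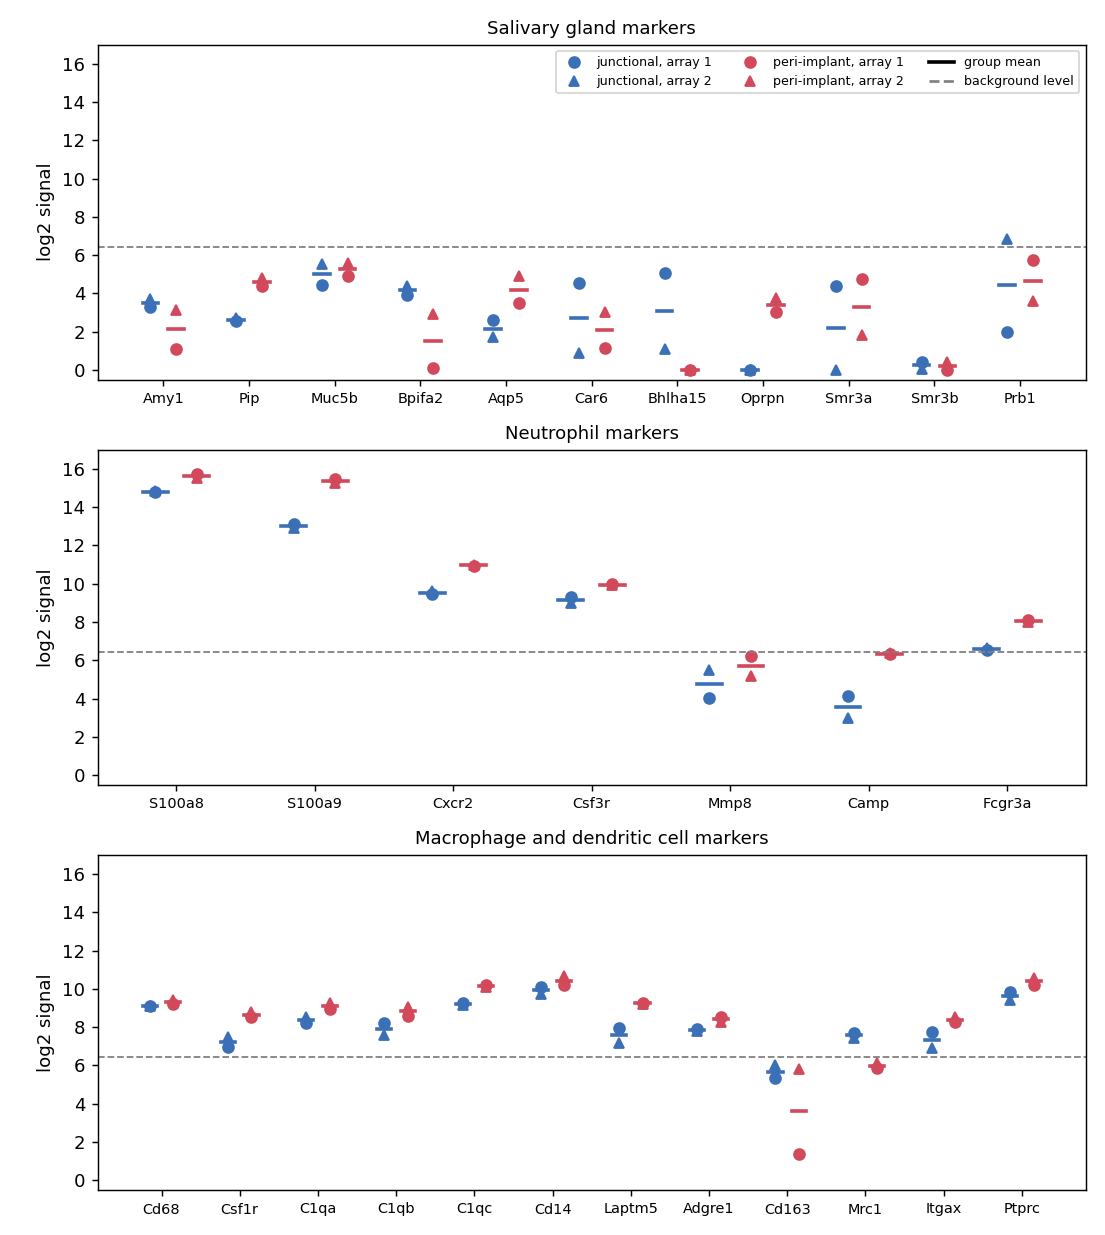
Log2 signal on each array of the matched markers of salivary gland, neutrophils, and macrophages and dendritic cells, with group means as bars and the background level of 6.42 as a dashed line. Salivary markers lie at or below the line apart from Prb1 on 1 array. S100a9, Cxcr2 and Csf1r are higher on both peri-implant arrays, while Mrc1 is lower on both. Camp, Mmp8 and Cd163 lie below the line on every array.

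The genomic neighbours of Lpo and Duox2 that were matched to a probe set did not pass the test. Tspoap1, beyond Mpo, Terb2, beyond Sord, and Duoxa2 were not matched and not tested. Mpo, the next gene to Lpo at 2113 bases, was not matched. Epx, at 39413 bases, was below background on every array. Of the 3 probe sets of Mks1, a gene of the primary cilium whose span overlaps that of Epx, 1 exceeded background in peri-implant samples, with 6.80 and 7.14 against 5.97 and 5.47 (adjusted p = 0.13). On the other side of Duox2, Sord, sorbitol dehydrogenase, had differences of 0.06 and -0.11 with its 2 probe sets (adjusted p = 0.914 and 0.638). Shf, beyond Duox1, had a difference of -0.02 (adjusted p = 0.977).

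Over the 4 arrays, the genes whose pattern was nearest to that of Lpo by Euclidean distance between centred log2 signals were S100a7l2, Arfip2, Tmem26, Cyp3a18 and Smarca1, at distances from 0.258 to 0.39. S100a7l2, of the S100 calcium-binding family, read 3.83 and 4.54 on the junctional arrays and 8.82 and 8.61 on the peri-implant arrays, at least 4.92-fold higher (adjusted p = 0.000451). Arfip2 was at least 2.64-fold higher, and the other 3 were below background on all arrays. The 5 nearest to Duox2, Adam23, Gabbr1, Aak1, Spata20 and Nrg1, were likewise below background throughout. Nearest to the Cyba probe set that passed were Sh2b1, Actr10, Taf9, Mast4 and Cryba4, of which Taf9 passed (adjusted p = 0.0309). Nearest to that of Cybb were Ncaph2, Kank1, Dusp26, Sec14l3 and Clec4m, of which the first 3 passed. All these genes were picked by their match to a called member on the same arrays, so the choice itself set their differences. Whether they passed is therefore not separate evidence. With quantile normalization 3 of 5 neighbours were shared for Lpo, Duox2 and Cyba, and 2 of 5 for Cybb, so the order rests on small distances.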

How the data were processed

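RNA levels were read from 4 rat Affymetrix arrays, grouped by title. The authors deposited log2 signals for 31099 probe sets. The sources used here do not name their software or normalization. From the values, each array had been scaled to a trimmed mean linear signal of 500.19 (2% trimmed at each end) and floored at log2 0 (378 to 729 probe sets an array). No array was normalized again. After removing 57 control probe sets, 31042 were tested in R 4.3.3 with limma 3.58.1 (lmFit, eBayes with intensity trend and robust prior, two-sided, Benjamini-Hochberg over all probe sets, threshold 0.05), with the default eBayes beside it. The trend was preferred because the spread between replicates depends on signal. Members, lists and this choice were made with earlier results of these data known. The script was tested on simulated data.

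Genes came from the platform annotation (20826 probe sets with 1 symbol, 436 with several, 9780 with none), with symbols updated by gene identifier in RefSeq GRCr8. Each list gene stands for its probe set with the highest mean. Signals at or below background in the lower group were raised to it before an "at least" fold. Named genes were all members, list genes past the test and above background (otherwise up to 3 with the largest differences), genomic neighbours, and the 5 nearest patterns. Alternatives covered the variance prior, pairing, low signals, filtering, normalization, probe set choice and each array left out.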

Additional observations from a re-analysis of the deposited data

How the results depend on the processing

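Lpo, Duox2, the brighter Cyba probe set and both Cybb probe sets kept their direction under every alternative run. For most alternatives this was fixed in advance. The groups did not overlap for any of these probe sets, so leaving out an array or raising low signals could not reverse them. Changes of the variance prior, the replicate block, the filter and the choice of probe set leave the difference itself as it was. The default fit called 0 probe sets higher and 0 lower, and 0 members. Of the 9 alternatives that kept all 4 arrays, 8 (all but the default fit) called Lpo, with differences from 4.26 to 4.72, and Duox2, from 1.44 (signals raised to background) to 2.79. Cybb 1369181_at passed in 3 of 9 (filter on dim probe sets, replicate block, signals raised to background), with adjusted p from 0.0135 to 0.109 outside the default fit. Raising signals to background left 11396 probe sets without spread in either group, so its p-values are too small. Calls lower were 1964 with the filter and 759 with 1 probe set per gene, against 1292. With each array's own background, Lpo was 26.3-fold and Duox2 at least 3.95-fold higher.

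Without 1 array, leaving 1 residual degree of freedom, 59 to 146 probe sets were called higher, 14 to 207 lower, and 1 member probe set, that of Lpo, each time. The Cyba probe set near background, 1378451_at, then ranged from -0.97 to 0.28. With the replicate number as a block, 2226 probe sets were called higher, 1976 lower and 5 members. Deviations of same-numbered arrays correlated at r = 0.0394 over 31042 probe sets, and the numbers were not used as pairs. Whether both epithelia came from the same rats is not known. Of 29 genes of the pathway and marker lists that were run (genomic neighbours and nearest patterns were not), 0 changed direction under the 9 alternatives, and 21 (median centring) to 28 passed outside the default fit, where 0 did. Nearly all of these genes were named because they passed the main fit on the same arrays. The counts were therefore largely set by that choice and say little about the lists. Signals below background have no order.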
